A study of Mus musculus with 12 samples.

Results

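Expression of 10 C-type lectin receptor genes (Clec4e, Clec4d, Clec4n, Clec5a, Clec7a, Clec4a2, Clec12a, Clec4a1, Clec4a3 and Clec10a) was followed by RNA sequencing in macrophages of mouse marrow, which were grown from marrow precursors with the growth factor M-CSF. The genes were taken by symbol from a table of 54446 genes, and all 10 had enough counts to be tested among 13773 genes. The 12 libraries formed 4 labelled groups of 3. Every mouse carried loxP-flanked Nlrc3 alleles. The knockout (KO) libraries came from NLRC3ΔMac mice (LysM-Cre+ Nlrc3 fl/fl), whose Cre is driven by the myeloid LysM promoter and deletes the gene in macrophages and neutrophils. The wild-type (WT) libraries came from mice without Cre (LysM-Cre- Nlrc3 fl/fl). Because marker genes went against the KO labels, the KO libraries are called labelled-KO, and single libraries KO LPS 1, WT medium 2 and so on by their labels. Cells of both genotypes received lipopolysaccharide (LPS), a bacterial cell wall component, for 12 h, or stayed in RPMI 1640 medium. The labels give no age, and they do not say that the 3 libraries of a group came from separate mice, so the p-values speak only of spread among these libraries, part of which may be technical.

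C-type lectin receptors are membrane proteins of myeloid cells that bind carbohydrates, lipids or altered self through a C-type lectin-like domain. The activating ones signal through the kinase Syk, either directly or through an adaptor with an immunoreceptor tyrosine-based activation motif, Fcer1g or Tyrobp, and on to the CARD9, BCL10 and MALT1 complex that switches on NF-kappaB and cytokine genes. Inhibitory members carry an immunoreceptor tyrosine-based inhibition motif that recruits phosphatases such as SHP-1, encoded by Ptpn6. In macrophages they are best known as sensors of fungi, mycobacteria and dead cells.

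Of the 10 genes, 9 lie on mouse chromosome 6 and Clec10a on chromosome 11 (70156197 to 70170834, plus strand; mm10, GENCODE release M21 positions). The Clec4 cluster runs over 368 kb from Clec4a1 (122921848 to 122934619) through Clec4a3 (122952515 to 122969875), Clec4a2 (123106428 to 123143999), Clec4n (123229843 to 123247021) and Clec4d (123262111 to 123275265), all on the plus strand, to Clec4e (123281789 to 123289870, minus strand). Clec4d and Clec4e, whose products pair with each other, are separated by 6.5 kb. Clec12a (129342691 to 129365303, plus strand) and Clec7a (129461591 to 129472779, minus strand) are 96.3 kb apart, and Clec5a (40574894 to 40585821, minus strand) lies far from the others. The annotation types Clec7a as a polymorphic pseudogene and the other 9 as protein coding. Clec10a shared 9.02% of its 50-base exonic words with 49 other genes, of which its neighbour Mgl2 shared the most. Clec4a2 shared 6.83% with 447 other genes, of which Clec4a4 shared the most, so reads of Clec10a and Clec4a2 could be split by the counting. The other 8 shared at most 0.686%.

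The promoters of Clec4e, Clec4d, Clec12a and Clec7a are shown as those of 2 pairs, Clec4e with Clec4d and Clec12a with Clec7a. The genes of a pair follow each other among the 10, at 6.5 and 96.3 kb apart, and genes outside the 10 may lie between them. In the results below, Clec4e and Clec4d had folds of the same sign and Clec12a and Clec7a of opposite signs in each of 4 comparisons. Each sequence holds the 250 bases before the RefSeq start (GRCm38.p6, the build of mm10), 5′ to 3′ on the gene's strand, and capitals mark matches, on either strand, to the motifs searched.
Clec4e (chr6:123289872-123290121, minus strand): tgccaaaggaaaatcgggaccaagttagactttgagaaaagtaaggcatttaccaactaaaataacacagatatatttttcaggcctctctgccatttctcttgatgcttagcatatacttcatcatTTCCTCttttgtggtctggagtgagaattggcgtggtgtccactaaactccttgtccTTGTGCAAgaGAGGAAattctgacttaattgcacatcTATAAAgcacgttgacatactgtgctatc
Clec4d (chr6:123261857-123262106, plus strand): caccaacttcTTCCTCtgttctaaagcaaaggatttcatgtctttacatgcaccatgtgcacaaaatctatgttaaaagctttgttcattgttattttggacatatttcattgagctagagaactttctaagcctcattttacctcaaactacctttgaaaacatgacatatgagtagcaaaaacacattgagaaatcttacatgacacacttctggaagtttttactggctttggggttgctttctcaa
Clec12a (chr6:129349994-129350243, plus strand): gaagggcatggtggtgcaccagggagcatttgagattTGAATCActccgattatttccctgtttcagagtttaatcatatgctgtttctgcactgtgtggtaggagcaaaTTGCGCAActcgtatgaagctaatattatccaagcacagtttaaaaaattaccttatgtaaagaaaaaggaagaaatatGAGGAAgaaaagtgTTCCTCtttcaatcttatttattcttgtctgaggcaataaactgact
Clec7a (chr6:129472780-129473029, minus strand): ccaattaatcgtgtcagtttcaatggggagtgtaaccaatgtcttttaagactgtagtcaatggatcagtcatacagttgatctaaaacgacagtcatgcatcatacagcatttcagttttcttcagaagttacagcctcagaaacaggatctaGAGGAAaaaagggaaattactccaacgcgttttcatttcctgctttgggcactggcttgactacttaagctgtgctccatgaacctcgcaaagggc
The motifs were searched on both strands in windows of 250 bases before to 50 after the start, of which RefSeq gave 10 for 8 of the genes, and in all 32851 windows. They were the PU.1 core GAGGAA (28.3% of all windows), C/EBP as TTNNGCAA (10.8%), AP-1 as TGANTCA (7.81%), STAT as TTCNNNGAA (8.3%), the TATA box TATAAA (13.6%) and an NF-kappaB motif of 10 letters (1.63%), which matched none of the 10 windows. The Clec4e window held 2 PU.1 cores, at −123 and −56, a C/EBP match at −66 and a TATA box at −29, with no overlap between them. The Clec4d window held a PU.1 core at −240 and 2 more after the start, at 8 and 40. The starts of Clec4d and Clec4e lie at the outer ends of the pair, not beside the gap between the genes. Clec12a had PU.1 cores at −61 and −47, a C/EBP match at −140 and an AP-1 match at −213, and Clec7a a PU.1 core at −96 and a reversed TATA box at 43. The RefSeq start of Clec12a lies inside the annotated gene. Such matches describe letters in these windows and do not show binding.

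Library totals ran from 13082947 to 20960505 counts, and the genes had 25 to 35799 counts in a library. Values below are normalised CPM, counts per 1000000 scaled by trimmed-mean (TMM) factors, which moved with the groups: 1.20 to 1.24 in labelled-KO LPS, 0.765 to 1.02 in WT LPS, 0.702 to 0.791 in labelled-KO medium and 1.10 to 1.46 in WT medium. Scaled by library size only, the median log2 fold of all genes was 0.57 for labelled-KO LPS over WT LPS and −0.85 for labelled-KO medium over WT medium. It was −0.64 for WT LPS over WT medium and 0.78 for labelled-KO LPS over labelled-KO medium, against medians of 0.06, −0.02, −0.06 and 0.04 with TMM, so the folds below are relative to that shift. The deleted gene, Nlrc3, stood at 13.0, 6.69 and 4.91 normalised CPM in labelled-KO LPS, against 1.04, 4.32 and 1.71 in WT LPS. The medium libraries had 1.42, 1.21 and 1.11 normalised CPM in labelled-KO cells and 7.31, 12.4 and 7.10 in WT. Nlrc3 went against the label in labelled-KO LPS. The counts cover the whole gene, and the labels do not say which exons are deleted. The LPS-induced gene Nos2 did so too, at 0.689 to 5.43 CPM in labelled-KO LPS, 831 to 2704 CPM in WT LPS, 1148 to 2717 CPM in labelled-KO medium and 3.90 to 8.35 CPM in WT medium, so every direction below that involves KO is that of libraries labelled so.

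Libraries of a group differed in the macrophage gene Adgre1, which encodes F4/80, and in the integrin gene Itgax, a dendritic cell marker that macrophages also express. Adgre1 stood at 464, 1259 and 1470 normalised CPM in labelled-KO LPS, 538, 1745 and 761 in WT LPS, 506, 512 and 894 in labelled-KO medium and 1140, 353.5 and 1120.5 in WT medium. Itgax stood at 273, 132 and 113 normalised CPM in labelled-KO LPS, 373, 45.3 and 51.7 in WT LPS, 299.7, 388 and 110.2 in labelled-KO medium and 105, 453 and 57.7 in WT medium. KO LPS 1, WT LPS 1 and WT medium 2 were thus the lowest of their groups in Adgre1 and the highest in Itgax. By chi-square per degree of freedom over all genes, KO LPS 1 differed from the other libraries of its group by 213 and 243, WT medium 2 by 265 and 235 and WT LPS 2 by 243 and 182, where the closest pair of those groups differed by 33.9, 24.3 and 90.96. Xist, the transcript of the inactive X chromosome, was above 20 CPM in labelled-KO LPS 2 and 3, in WT LPS 2 and in WT medium 1 and 3, and under 1 CPM in the others, so sex was spread unevenly over the groups. KO LPS 1, WT LPS 2 and WT medium 2, which stood apart by chi-square, were also those that differed in Xist from the rest of their group. Sex therefore cannot be told apart from that difference between libraries. All 8 macrophage markers were counted, with sums of 21231 to 34432 CPM in labelled-KO LPS, 12620 to 19337 in WT LPS, 10062 to 12947 in labelled-KO medium and 32183 to 35761 in WT medium. The 12 neutrophil markers summed to 1357 to 7576, 1875 to 6632, 2130 to 4204 and 1067 to 1593 CPM in the same order of groups, the 6 B lineage markers to 12.3 to 78.3, 4.48 to 10.9, 3.60 to 6.27 and 7.95 to 12.9 CPM, and the 9 dendritic cell markers to 196 to 339, 65.6 to 300.3, 113 to 288 and 95.3 to 502 CPM. These sums are CPM without TMM factors. Lyz2 was the largest part of the macrophage sum (24168 of 32183 CPM in WT medium 1) and Itgax of the dendritic cell sum (499 of 502 in WT medium 2). By mean CPM, Fcgr1 (1764 against 438), Cd14 (1129 against 707) and Itgam (341 against 290) were higher in WT LPS than in WT medium. The other macrophage markers were lower in CPM without TMM factors. With TMM factors, Adgre1 (1015 against 871) and Mertk (116 against 94.9) were higher in WT LPS too, and Csf1r, Cd68 and Lyz2 stayed lower. The part of all these markers in the results below was not tested, and in bulk RNA fewer cells of a type and less RNA per cell cannot be told apart.

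**Figure D1:**
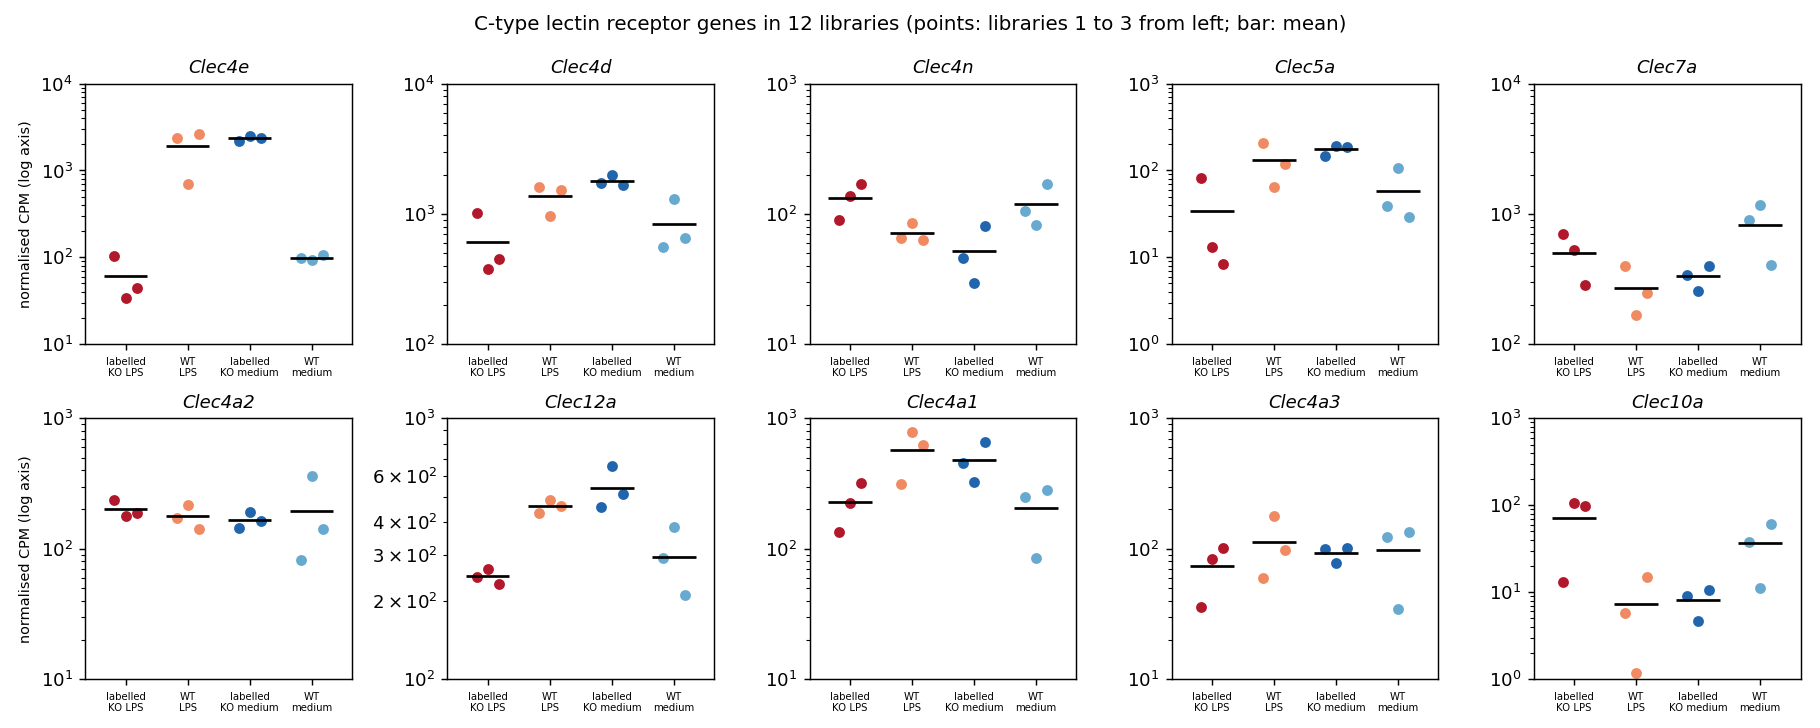
Normalised CPM (log axis) of the 10 receptor genes in each library, with libraries 1 to 3 of each labelled group from left to right and a bar at the group mean. Clec4e splits the libraries into 33.6 to 107 normalised CPM in labelled-KO LPS and in WT medium and 692 to 2662 in WT LPS and in labelled-KO medium, while Clec4a2 overlaps across the groups.

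Clec4e, which encodes Mincle, a receptor for mycobacterial cord factor and for dead cells, had the largest log2 folds of the 10. It stood at 104, 33.6 and 44.2 normalised CPM in labelled-KO LPS, against 2383, 692 and 2662 in WT LPS. Without LPS, labelled-KO cells had 2191, 2482 and 2378 normalised CPM and WT cells 98.1, 93.5 and 107. Every labelled-KO LPS library was below every WT LPS library, and every labelled-KO medium library was above every WT medium library, while WT LPS 2 was the lowest of the high libraries. Clec4e was lower in labelled-KO LPS than in WT LPS, with a log2 fold of −4.98 ± 0.58 (SE; Benjamini-Hochberg (BH) adjusted p = 0.000192 by edgeR's quasi-likelihood test), a ratio of 0.0317. It was higher in labelled-KO medium than in WT medium by 4.56 ± 0.57 (edgeR, BH-adjusted p = 0.000244). With LPS, Clec4e rose in WT by 4.26 ± 0.56 (edgeR, BH-adjusted p = 0.000431), a 19.2-fold change with a 95% interval from 8.25 to 44.7. In labelled-KO cells it was lower with LPS than in medium, with a log2 fold of −5.28 ± 0.59 (edgeR, BH-adjusted p = 0.000127). These 2 LPS effects share no library, and they differed by −9.54 ± 0.81 (edgeR, BH-adjusted p = 5.65e-06). The 4 calls held with each of the 12 libraries left out and under all 11 other settings tried.

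Clec4d encodes MCL, which joins Mincle at the membrane and binds the same glycolipid. It stood at 1010, 380 and 452 normalised CPM in labelled-KO LPS, against 1611, 959 and 1527 in WT LPS. In medium, the levels were 1713, 1982 and 1676 normalised CPM in labelled-KO cells and 558, 1296 and 650.1 in WT. KO LPS 1, WT LPS 1 and WT medium 2, the lowest of their groups in Adgre1, were the highest in Clec4d, as was KO medium 2 in its group, and KO LPS 1 overlapped WT LPS 2. Clec4d was lower in labelled-KO LPS than in labelled-KO medium, with a log2 fold of −1.54 ± 0.44 (edgeR, BH-adjusted p = 0.0196), and that LPS effect differed from WT by −2.25 ± 0.61 (edgeR, BH-adjusted p = 0.0112). The first call ended without KO LPS 2, KO LPS 3, KO medium 1 or KO medium 2 (edgeR, BH-adjusted p up to 0.0840), and with libraries scaled by size only (log2 −0.81, adjusted p = 0.0865), where the difference of the LPS effects did not pass either (−0.95). The 3 other comparisons did not pass, at −1.15 ± 0.43 for labelled-KO LPS over WT LPS, 1.10 ± 0.43 for labelled-KO medium over WT medium and 0.71 ± 0.43 for WT LPS over WT medium (edgeR, BH-adjusted p = 0.0711, 0.0789 and 0.283). Without both KO LPS 1 and WT medium 2 these folds were −1.74, 1.51 and 1.12 (edgeR, BH-adjusted p = 0.00155, 0.00303 and 0.0155). With a term for sex in the fit, read from Xist, the first of them also passed (log2 −0.91; edgeR, BH-adjusted p = 0.00832). Leaving out KO LPS 1 and WT medium 2 left only libraries with Xist above 20 CPM in labelled-KO LPS and WT medium. Labelled-KO medium had none, so sex and label cannot be told apart there in labelled-KO medium over WT medium.

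Clec4n encodes dectin-2, a receptor for fungal mannans that signals through the Fcer1g adaptor. Its log2 folds had the opposite sign to those of its neighbours Clec4d and Clec4e in all 4 comparisons. Clec4n stood at 90.0, 138 and 171 normalised CPM in labelled-KO LPS, against 64.9, 85.4 and 63.0 in WT LPS. The medium libraries had 46.2, 29.5 and 80.4 normalised CPM in labelled-KO cells and 105, 82.2 and 169.5 in WT. Neither pair of groups overlapped, although KO medium 3 and WT medium 2 lay close. Clec4n was lower in labelled-KO medium than in WT medium, with a log2 fold of −1.19 ± 0.40 (edgeR, BH-adjusted p = 0.0450) and higher in labelled-KO LPS than in labelled-KO medium by 1.35 ± 0.40 (edgeR, BH-adjusted p = 0.0242). For labelled-KO LPS over WT LPS the fold was 0.90 ± 0.40, and for WT LPS over WT medium −0.74 ± 0.39, neither past the threshold (edgeR, BH-adjusted p = 0.117 and 0.222). The LPS effects differed by 2.09 ± 0.56 (edgeR, BH-adjusted p = 0.0107). With the term for sex, the folds that passed became −0.72 and 0.88 and the difference of the LPS effects 1.38, and none of these passed (edgeR, BH-adjusted p = 0.184, 0.103 and 0.0631). The first call also ended without KO LPS 2 or 3, KO medium 1 or 2, or WT medium 1 or 3 (edgeR, BH-adjusted p up to 0.188), and the second without KO LPS 2 or 3 or KO medium 1 or 2 (up to 0.0924).

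Clec5a encodes MDL-1, a receptor that signals through the adaptors DAP12 and DAP10, the products of Tyrobp and Hcst, and that binds dengue virus. It stood at 81.1, 13.2 and 8.28 normalised CPM in labelled-KO LPS, against 207, 65.4 and 120 in WT LPS. Without LPS, labelled-KO cells had 148, 190 and 186 normalised CPM and WT cells 39.0, 108 and 29.3. As for Clec4d, KO LPS 1, WT LPS 1, KO medium 2 and WT medium 2 were the highest of their groups, and KO LPS 1 lay above WT LPS 2. Clec5a was lower in labelled-KO LPS than in labelled-KO medium, with a log2 fold of −2.35 ± 0.80 (edgeR, BH-adjusted p = 0.0423), and this LPS effect differed from WT by −3.51 ± 1.10 (edgeR, BH-adjusted p = 0.0237). Leaving out KO LPS 2 or 3, WT LPS 3, any labelled-KO medium library or WT medium 1 ended the first call (edgeR, BH-adjusted p up to 0.138), and leaving out KO LPS 2, WT LPS 1, KO medium 2 or WT medium 1 or 3 ended the second (up to 0.0666). Scaled by library size only, the folds were −1.63 and −2.22 and did not pass. The folds that did not pass were −1.93 ± 0.78 for labelled-KO LPS over WT LPS, 1.57 ± 0.77 for labelled-KO medium over WT medium and 1.15 ± 0.77 for WT LPS over WT medium (edgeR, BH-adjusted p = 0.0933, 0.155 and 0.333). Without both KO LPS 1 and WT medium 2, they were −3.61, 2.30 and 1.86 (edgeR, BH-adjusted p = 0.000587, 0.00365 and 0.0121), and with the term for sex the first was −1.81 and passed (0.00334). As for Clec4d, with those libraries left out sex and label cannot be told apart in labelled-KO medium over WT medium.

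Clec7a encodes dectin-1, the beta-glucan receptor that recruits Syk through its own tail. It stood at 699, 529 and 282 normalised CPM in labelled-KO LPS, against 400.4, 168 and 246 in WT LPS. In medium, the levels were 337, 255 and 402 normalised CPM in labelled-KO cells and 893, 1173 and 403 in WT. WT medium 3 lay beside the highest labelled-KO medium library, and the groups in LPS overlapped. Clec7a fell with LPS in WT by 1.60 ± 0.47 on the log2 scale (edgeR, BH-adjusted p = 0.0330), a ratio of 0.330 with a 95% interval from 0.163 to 0.668. That call ended without WT LPS 2 or 3 or WT medium 1 or 2 (edgeR, BH-adjusted p up to 0.107). In labelled-KO cells the LPS effect was 0.60 ± 0.46 and did not pass (edgeR, BH-adjusted p = 0.337), and the LPS effects differed by 2.20 ± 0.65 (edgeR, BH-adjusted p = 0.0177), a difference that did not pass without both KO LPS 1 and WT medium 2 (adjusted p = 0.0512). Clec7a was −1.31 ± 0.46 in labelled-KO medium over WT medium (edgeR, BH-adjusted p = 0.0552) and 0.89 ± 0.46 in labelled-KO LPS over WT LPS (adjusted p = 0.178; 1.19 with the term for sex, adjusted p = 0.0268). The first of these passed under 8 of the 11 other settings, among them DESeq2 (Benjamini-Hochberg adjusted p = 0.0155) and scaling by library size only (log2 −2.07; edgeR, adjusted p = 0.00291).

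Clec12a and Clec4a2 encode receptors with an inhibition motif. Clec12a, a receptor for uric acid crystals, stood at 246, 265 and 230.5 normalised CPM in labelled-KO LPS, against 432, 485 and 460 in WT LPS. The medium libraries had 457, 658 and 514 normalised CPM in labelled-KO cells and 290.4, 382 and 209.7 in WT. Neither pair of groups overlapped, and the 3 labelled-KO LPS libraries lay close together. Clec12a was lower in labelled-KO LPS than in WT LPS, with a log2 fold of −0.89 ± 0.27 (edgeR, BH-adjusted p = 0.0306), and lower than in labelled-KO medium, with a log2 fold of −1.13 ± 0.27 (adjusted p = 0.00829). It was higher in labelled-KO medium than in WT medium, by 0.89 ± 0.27 (edgeR, BH-adjusted p = 0.0294), and not past the threshold in WT LPS over WT medium, at 0.64 ± 0.27 (adjusted p = 0.116). The LPS effects differed by −1.78 ± 0.38 (edgeR, BH-adjusted p = 0.00282). With libraries scaled by size only, the 4 folds that passed, in the order given and ending with the difference of the LPS effects, were −0.40, −0.39, 0.09 and −0.49 and none passed, so the Clec12a calls rest on the scaling. The KO LPS over WT LPS call also ended when any of its 6 libraries was left out (edgeR, BH-adjusted p up to 0.107), and the KO medium over WT medium call without WT LPS 1 or 3, any labelled-KO medium library or WT medium 1 or 3 (up to 0.161). With the term for sex the KO medium over WT medium fold was 0.79 and did not pass (edgeR, BH-adjusted p = 0.0518), where no library of labelled-KO medium had Xist above 20 CPM.

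Clec4a2 encodes DCIR1. It stood at 238, 177 and 187 normalised CPM in labelled-KO LPS, against 173, 218 and 143 in WT LPS. Without LPS, labelled-KO cells had 145, 190.3 and 164 normalised CPM and WT cells 82.4, 364 and 142. WT medium 1 and 2 were the lowest and the highest of all 12 libraries, so the spread within WT medium covered the other groups. No comparison passed (edgeR, BH-adjusted p from 0.625 to 0.860 for the 4 simple comparisons and the difference of the LPS effects), with log2 folds of 0.17 for labelled-KO LPS over WT LPS, −0.24 for labelled-KO medium over WT medium, −0.14 for WT LPS over WT medium and 0.27 for labelled-KO LPS over labelled-KO medium. The 95% intervals were −0.77 to 1.12, −1.19 to 0.71, −1.09 to 0.81 and −0.68 to 1.22. Without WT medium 2 the folds of labelled-KO medium and of WT LPS over WT medium were 0.51 and 0.62, still not past the threshold.

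Clec4a1 and Clec4a3 encode DCIR4 and DCIR3, relatives of DCIR1 at the other end of the cluster. Clec4a1 stood at 135, 223 and 321 normalised CPM in labelled-KO LPS, against 316, 791 and 622 in WT LPS. In medium, the levels were 451, 327 and 662 normalised CPM in labelled-KO cells and 249, 84.9 and 283 in WT. Labelled-KO LPS 3 lay just above WT LPS 1, and KO LPS 1, WT LPS 1 and WT medium 2 were the lowest of their groups here, where they were the highest in Clec5a. No simple comparison of Clec4a1 passed: the log2 folds were −1.35 ± 0.50 for labelled-KO LPS over WT LPS, 1.22 ± 0.50 for labelled-KO medium over WT medium, 1.49 ± 0.51 for WT LPS over WT medium and −1.08 ± 0.50 for labelled-KO LPS over labelled-KO medium (edgeR, BH-adjusted p = 0.0713, 0.0928, 0.0613 and 0.121). The LPS effects differed by −2.57 ± 0.71 (edgeR, BH-adjusted p = 0.0127), a difference that held without each library and did not pass when libraries were scaled by size only (−1.24). With the term for sex, Clec4a1 passed in all 4 simple comparisons, at −1.76, 2.13, 1.99 and −1.91 in the order above (edgeR, BH-adjusted p = 0.00377, 0.00389, 0.00257 and 0.00501). With DESeq2 the first and the third passed (BH-adjusted p = 0.0330 and 0.0263). What the term for sex removed cannot be told apart from the spread of KO LPS 1, WT LPS 2 and WT medium 2. Labelled-KO medium had no library with Xist above 20 CPM, so its folds with the term rest on the other groups.

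Clec4a3 stood at 35.7, 83.4 and 102 normalised CPM in labelled-KO LPS, against 59.6, 179 and 98.1 in WT LPS. The medium libraries had 100.2, 77.8 and 101 normalised CPM in labelled-KO cells and 123, 34.4 and 135 in WT. All groups overlapped, and KO LPS 1, WT LPS 1 and WT medium 2 were again the lowest of their groups. The log2 folds of Clec4a3 lay between −0.60 and 0.20 in the 4 simple comparisons, and none passed (edgeR, BH-adjusted p from 0.443 to 0.938). With the term for sex, Clec4a3 passed in all 4: it was −1.12 in labelled-KO LPS over WT LPS, 1.14 in labelled-KO medium over WT medium, 0.80 in WT LPS over WT medium and −1.45 in labelled-KO LPS over labelled-KO medium (edgeR, BH-adjusted p = 0.00663, 0.0150, 0.0389 and 0.00343). The second of these had the opposite sign from −0.07 without the term, and the difference of the LPS effects was −2.25 with it (edgeR, BH-adjusted p = 0.00136) and −0.54 without it (0.602). The limits of the term given for Clec4a1 hold for Clec4a3 too.

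**Figure D2:**
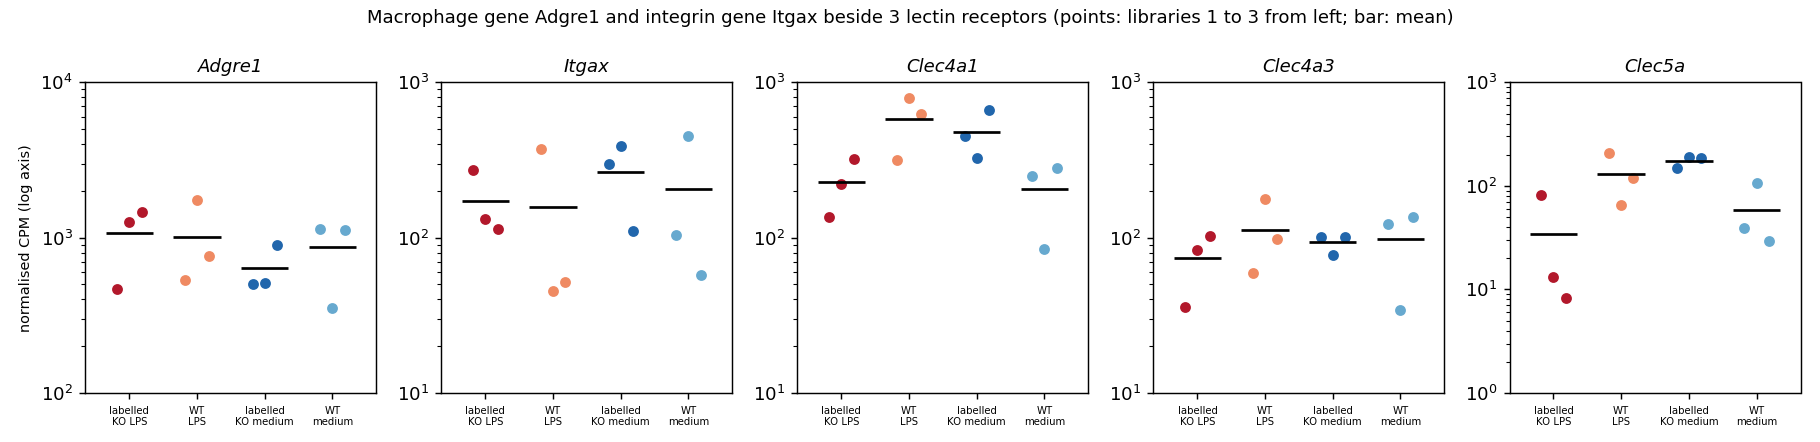
Normalised CPM (log axis) of the macrophage gene Adgre1, the integrin gene Itgax and 3 receptor genes, with libraries 1 to 3 of each labelled group from left to right and a bar at the mean. In KO LPS 1, WT LPS 1 and WT medium 2, Adgre1, Clec4a1 and Clec4a3 are the lowest of their group, and Itgax and Clec5a the highest.

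Clec10a encodes MGL1, a galactose-type lectin found on alternatively activated macrophages. It stood at 12.9, 105 and 97.4 normalised CPM in labelled-KO LPS, against 5.82, 1.18 and 14.8 in WT LPS. Without LPS, labelled-KO cells had 9.04, 4.64 and 10.6 normalised CPM and WT cells 37.4, 11.2 and 61.6. KO LPS 1 lay below WT LPS 3, while KO LPS 2 and 3, the libraries of that group with Xist, were the highest of all 12. The neutrophil markers summed to 1357, 6221 and 7576 CPM in labelled-KO LPS 1, 2 and 3, and the B lineage markers to 12.3, 77.4 and 78.3 CPM. In WT LPS 3 the neutrophil sum was 6632 CPM, with Clec10a at 14.8. In WT medium 1 and 3 it was 1119 and 1593 CPM, with Clec10a at 37.4 and 61.6. Within WT LPS, labelled-KO medium and WT medium, library 3 was the highest in both. Whether Clec10a follows these markers was not tested. Clec10a was higher in labelled-KO LPS than in WT LPS by 3.32 ± 0.95 (log2; edgeR, BH-adjusted p = 0.0259) and than in labelled-KO medium by 3.15 ± 0.95 (adjusted p = 0.0260), and the LPS effects differed by 5.50 ± 1.32 (adjusted p = 0.00577). With the term for sex these became 2.20, 1.95 and 3.26 and did not pass (edgeR, BH-adjusted p = 0.154, 0.238 and 0.185). The first call ended without KO LPS 2 or 3 or WT LPS 1 or 2 (edgeR, BH-adjusted p up to 0.0787), and the second without KO LPS 2 or 3 or any labelled-KO medium library (up to 0.0887). For labelled-KO medium over WT medium the fold was −2.18 ± 0.91, and for WT LPS over WT medium −2.35 ± 0.92, neither past the threshold (edgeR, BH-adjusted p = 0.0977 and 0.0983), though both passed without WT medium 2 (0.0392 and 0.0449). Without that library, every WT medium library had Xist above 20 CPM and no labelled-KO medium library did. Sex and label then cannot be told apart in labelled-KO medium over WT medium.

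**Figure D3:**
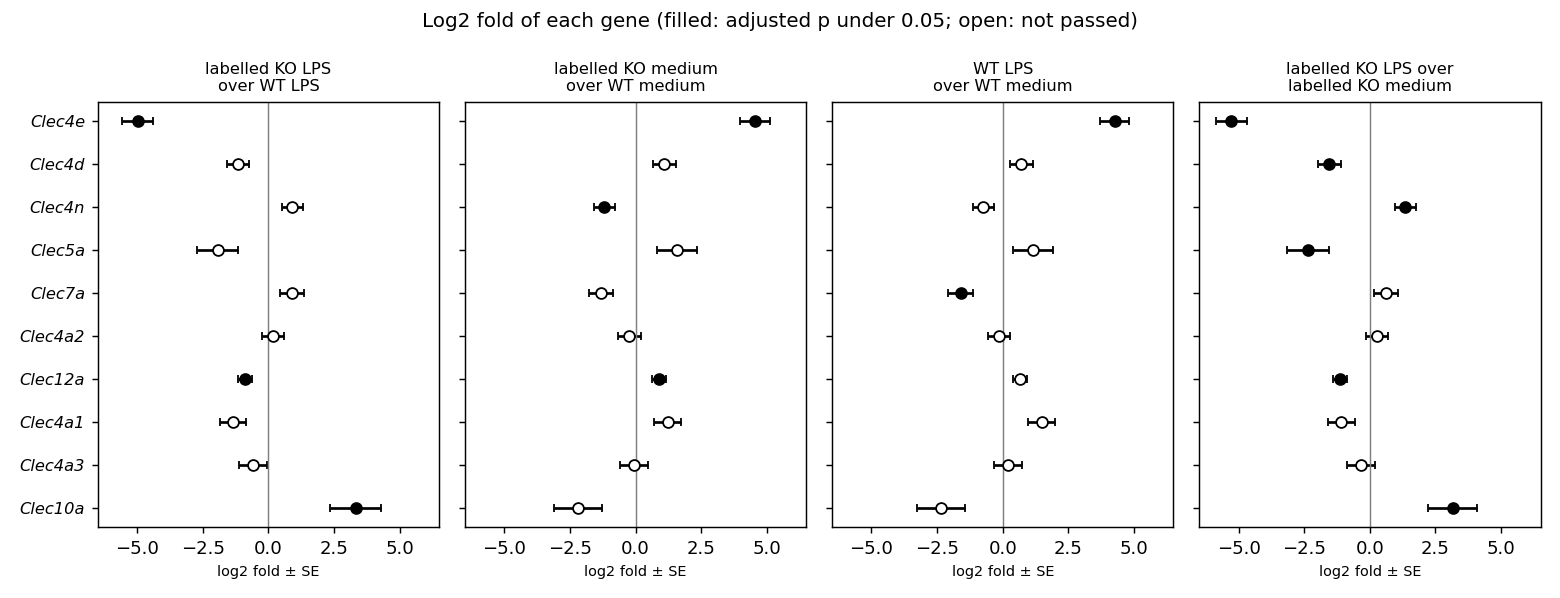
Log2 fold ± SE of each receptor gene (rows) in 4 comparisons (panels), with filled points past an adjusted p of 0.05 and open points not past it. Clec4e is filled in all 4 panels, at −4.98, 4.56, 4.26 and −5.28, and Clec4a2, Clec4a1 and Clec4a3 are open in all 4.

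By its labels, labelled-KO LPS over WT LPS was the comparison for Nlrc3 loss under LPS, which the study set out to measure. In that comparison Nlrc3 and Nos2 went against the labels, so its calls are not shown to be effects of Nlrc3 loss. Of the 10 genes, Clec10a was higher and Clec4e and Clec12a were lower, beside 24.1% of all genes called (10.4% higher and 13.7% lower; edgeR, Benjamini-Hochberg). The median log2 fold of the 10 was −0.75, against 0.06 over all genes. In medium, Clec4e and Clec12a were higher in labelled-KO cells and Clec4n was lower, beside 26.3% of all genes (14% higher and 12.3% lower), with a median of 0.41 against −0.02. In WT with LPS, Clec4e rose and Clec7a fell, beside 18.3% of all genes (11.9% higher and 6.46% lower), with a median of 0.42 against −0.06. In labelled-KO cells, Clec4n and Clec10a were higher with LPS than in medium and Clec4e, Clec4d, Clec5a and Clec12a lower, beside 30.4% of all genes (15.1% higher and 15.3% lower), with a median of −0.71 against 0.04. The LPS effects differed in 8 genes, 3 upward (Clec4n, Clec7a and Clec10a) and 5 downward (Clec4e, Clec4d, Clec5a, Clec12a and Clec4a1), beside 41.1% of all genes (20.5% upward and 20.6% downward), with a median of −1.16 against 0.11. With libraries scaled by size only, the calls among the 10 were 3 higher and 1 lower for labelled-KO LPS over WT LPS, 1 and 3 for labelled-KO medium over WT medium, 1 and 3 for WT LPS over WT medium, 3 and 1 for labelled-KO LPS over labelled-KO medium, and 4 and 1 for the difference. Over all genes that scaling moved the calls of labelled-KO LPS over WT LPS to 3487 higher and 1194 lower (1435 and 1889 with TMM), and those of labelled-KO medium over WT medium to 1070 and 5574 (1932 and 1688 with TMM). It moved those of WT LPS over WT medium to 1033 and 3200 (1636 and 890 with TMM), and those of labelled-KO LPS over labelled-KO medium to 5317 and 1177 (2082 and 2104 with TMM). The difference of the LPS effects went to 6597 upward and 1538 downward (2825 and 2832 with TMM).

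Between groups of 3, libraries did not overlap in 1 gene on the higher side (Clec4n) and in 2 on the lower side (Clec4e and Clec12a) for labelled-KO LPS over WT LPS, where 18.3% and 19.7% of all genes did not overlap upward and downward. For labelled-KO medium over WT medium it was 5 higher and 3 lower of the 10, beside 21.2% and 21.5% of all genes. For WT LPS over WT medium it was 3 higher (Clec4e, Clec12a and Clec4a1) and 1 lower (Clec7a), beside 18.5% and 15.4%, and for labelled-KO LPS over labelled-KO medium 2 higher and 5 lower, beside 23.3% and 22.5%.

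Because Nlrc3 and Nos2 went against the KO labels, each KO group was also set beside the WT group of the other treatment label. Labelled-KO medium against WT LPS gave 0 of the 10 genes past the threshold, beside 0% of all genes, and 0 of the 10 at an unadjusted p under 0.05, with DESeq2 also giving 0 (edgeR and DESeq2, Benjamini-Hochberg; 270 of all genes had an unadjusted p under 0.05). Their Clec4e was at 0.30 on the log2 scale, with a 95% interval from −0.77 to 1.36, and Clec12a at 0.24, with an interval from −0.34 to 0.82. Labelled-KO LPS against WT medium gave 0 of 10 as well, beside 0% of all genes, with 0 at an unadjusted p under 0.05 and 0 of the 10 by DESeq2, which called 41 of all genes (1135 had an unadjusted p under 0.05 by edgeR). Without KO LPS 1, edgeR called 245 of all genes there, with KO LPS 1 and WT medium 2 both left out 249, and with no filter on low counts 99, and 0 of the 10 receptors in each. Clec4e there was −0.72, with an interval from −1.79 to 0.36, and Clec10a 0.97, with an interval from −0.93 to 2.86. Libraries did not overlap in 1 gene on the higher side for labelled-KO medium over WT LPS (Clec4d, 1713, 1982 and 1676 against 1611, 959 and 1527 normalised CPM) and in none on the lower side, beside 1.89% and 3.57% of all genes. For labelled-KO LPS over WT medium every gene overlapped, beside 5.84% of all genes higher and 4.73% lower without overlap. The 95% intervals of most of the genes reach a log2 difference of 1, so the groups are not shown to be alike.

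**Figure D4:**
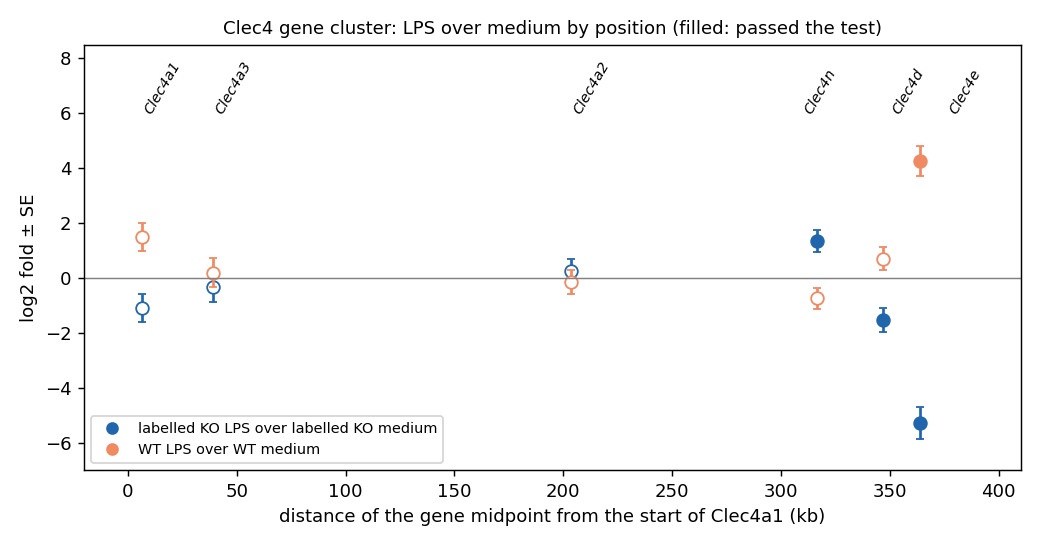
Log2 fold ± SE of LPS over medium for the 6 genes of the Clec4 cluster, placed by the distance of the gene midpoint from the start of Clec4a1 (kb), in labelled-KO cells and in WT, which share no library. Clec4d and Clec4e, 6.5 kb apart, stand at −1.54 and −5.28 in labelled-KO cells and at 0.71 and 4.26 in WT, and Clec4n, 15.1 kb before Clec4d, has the opposite sign to both.

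Levels can be compared between genes only per length, in FPKM (fragments per kilobase of gene, scaled by library total). By the group mean, Clec4d was the highest of the 10 in every group, at 468 ± 255 FPKM in labelled-KO LPS, 720.0 ± 96.3 in WT LPS, 818 ± 59.2 in labelled-KO medium and 653 ± 217 in WT medium (SD, n = 3 each). Clec4e changed its place most, ranking 9, 3, 2 and 8 of the 10 in the same order of groups, with means of 14.8 ± 9.05, 316 ± 155, 347 ± 34.3 and 26.3 ± 5.35 FPKM. Clec4a1, at 179 ± 74.5, 332 ± 180 and 229 ± 96.9 FPKM in the first 3 groups and 180.4 ± 107 in WT medium, did not separate from Clec7a in labelled-KO LPS (233 ± 94.7) or from Clec4e in WT LPS. Clec10a was the lowest in WT LPS, in labelled-KO medium and in WT medium, at 2.04 ± 1.93, 2.07 ± 0.886 and 17.6 ± 13.4 FPKM, the last within the spread of Clec5a (18.6 ± 10.7).

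The genes whose pattern over the 12 libraries lay closest to each receptor were found by the root mean square difference of centred log2 CPM, among 9105 tested genes with a mean of at least 5 CPM. For Clec4e they were Fpr2, a formyl peptide receptor (0.38), and Sod2, the mitochondrial superoxide dismutase (0.39), where the median over all candidates was 2.49. For Clec4d they were Evi2a and Bbip1 (0.15 and 0.16), for Clec4n Adipor2 and Prkab2 (0.22 and 0.26), for Clec5a Nes and Ly96, which encodes the LPS co-receptor MD-2 (0.44 and 0.47), and for Clec7a Gpr137b and Tle1 (0.34 and 0.38). For Clec12a they were Csf2rb2, an interleukin 3 receptor chain, and Dnajc7 (both 0.23), for Clec4a2 Commd10 and Tubb2a (0.26 and 0.27), for Clec4a1 Ric1 and Serp1 (0.19 and 0.22), and for Clec4a3 Phf21a and Usp35 (0.18 and 0.24). Clec10a had the least close neighbours, Slc9a9 (0.48) and Gas6, a ligand of TAM receptors (0.67).

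Of 26 genes that carry or restrain signals from these receptors, all tested, 2 were higher and 7 lower in labelled-KO LPS than in WT LPS, and 10 were higher and 2 lower in labelled-KO medium than in WT medium. With LPS, 9 rose and 1 fell in WT, and 6 were higher and 9 lower in labelled-KO cells. Of all genes, 10.4% were higher and 13.7% lower in the first of these comparisons, 14% and 12.3% in the second, 11.9% and 6.46% with LPS in WT, and 15.1% and 15.3% with LPS in labelled-KO cells. Fcer1g, the adaptor of Mincle, MCL and dectin-2, stood at 821, 713 and 761 normalised CPM in labelled-KO LPS, against 1744, 1443 and 1714 in WT LPS. In medium, the levels were 2383, 2284 and 1443 normalised CPM in labelled-KO cells and 577, 997 and 484 in WT. Fcer1g did not overlap in any of these pairs of groups and moved in the same direction as Clec4e in all 4 comparisons: −1.09 ± 0.32 for labelled-KO LPS over WT LPS, 1.57 ± 0.32 for labelled-KO medium over WT medium, 1.25 ± 0.32 for WT LPS over WT medium and −1.41 ± 0.32 for labelled-KO LPS over labelled-KO medium (log2; edgeR, BH-adjusted p = 0.0282, 0.00471, 0.0184 and 0.00707).

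Card9, the scaffold downstream of Syk, had the opposite signs, at 0.99 ± 0.26, −0.69 ± 0.26, −0.71 ± 0.26 and 0.97 ± 0.26 in the same order of comparisons (edgeR, BH-adjusted p = 0.0176, 0.0693, 0.0811 and 0.0156), so the first and last passed. Syk, Tyrobp and Hcst, the kinase and the adaptors of Clec5a, did not pass in any of the 4 comparisons, with log2 folds between −0.53 and 0.71. The largest rises and falls of the list were those of Tnfaip3, which encodes the NF-kappaB inhibitor A20, Malt1, the protease partner of CARD9, the kinase Src, the factor Nfatc2 and the guanine exchange factor Rasgrp3. Tnfaip3 was −3.68 ± 0.60 and Malt1 −3.56 ± 0.70 in labelled-KO LPS over WT LPS, and Rasgrp3 2.71 ± 0.64 (edgeR, BH-adjusted p = 0.00154, 0.00407 and 0.0103). In labelled-KO medium over WT medium, Tnfaip3 was 3.74 ± 0.60, Src 3.55 ± 0.52, Nfatc2 −3.96 ± 1.18 and Rasgrp3 −3.67 ± 0.66 (edgeR, BH-adjusted p = 0.00123, 0.000725, 0.0286 and 0.00224). With LPS in WT, Tnfaip3 rose by 3.52 ± 0.60, Malt1 rose by 3.06 ± 0.69 and Rasgrp3 fell by 3.79 ± 0.66, and in labelled-KO cells they were −3.89 ± 0.61, −3.70 ± 0.71 and 2.59 ± 0.64 with LPS over medium, with Nfatc2 at 4.49 ± 1.21 (edgeR, BH-adjusted p from 0.000907 to 0.0159).

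Of 13 cytokine and other genes listed as targets of signals from these receptors, 12 were tested. Of these, 8 were lower and 1 higher in labelled-KO LPS than in WT LPS, and 9 higher and 1 lower in labelled-KO medium than in WT medium. With LPS, 9 were higher and 1 lower in WT, and 1 was higher and 9 lower in labelled-KO cells. Their median log2 folds were −3.83, 3.75, 3.61 and −4.29, and 24.1%, 26.3%, 18.3% and 30.4% of all genes were called in these comparisons. LPS itself induces most of these genes through Toll-like receptor 4. Il6 was −7.88 ± 1.19 in labelled-KO LPS over WT LPS and 7.25 ± 1.15 in labelled-KO medium over WT medium (edgeR, BH-adjusted p = 0.000956 and 0.00111), Ptgs2, which encodes cyclooxygenase 2, was −5.60 ± 0.98 in the first (0.00214) and Il12b 6.36 ± 0.98 in the second (0.000952). Egr2, a transcription factor, had the other sign, at 1.66 ± 0.47 and −1.51 ± 0.47 (edgeR, BH-adjusted p = 0.0251 and 0.0349). With LPS in WT, Il6 rose by 7.23 ± 1.15 and Il12b by 6.13 ± 0.97 while Egr2 fell by 1.54 ± 0.47, and with LPS over medium in labelled-KO cells, Il6 was −7.90 ± 1.19, Ptgs2 −5.75 ± 0.99 and Egr2 1.62 ± 0.47 (edgeR, BH-adjusted p from 0.000743 to 0.0409).

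Of 41 other genes of the C-type lectin superfamily, 28 were tested. In labelled-KO LPS over WT LPS, 4 were higher and 7 lower, in labelled-KO medium over WT medium 8 and 4, in WT LPS over WT medium 7 and 5, and in labelled-KO LPS over labelled-KO medium 5 and 8, where 24.1%, 26.3%, 18.3% and 30.4% of all genes were called in either direction. Cd69, an early activation marker, stood at 3.25, 2.68 and 1.77 normalised CPM in labelled-KO LPS, against 792, 171 and 508 in WT LPS. The medium libraries had 832, 607 and 1125 normalised CPM in labelled-KO cells and 3.26, 4.79 and 2.76 in WT. Cd69 split the libraries as Clec4e did, with log2 folds of −7.58 ± 0.63, 7.90 ± 0.64, 7.09 ± 0.62 and −8.38 ± 0.66 in the same 4 comparisons (edgeR, BH-adjusted p from 1.77e-05 to 4.28e-05). Klrk1, which encodes the activating receptor NKG2D, was −4.13 ± 0.57, 5.37 ± 0.60, 4.81 ± 0.59 and −4.69 ± 0.58 (edgeR, BH-adjusted p from 0.000134 to 0.000543). Mgl2, the neighbour and near copy of Clec10a, was higher in labelled-KO LPS than in WT LPS and than in labelled-KO medium, by 3.09 ± 0.88 and 3.57 ± 0.91 (edgeR, BH-adjusted p = 0.0245 and 0.0123). Since the 2 genes share sequence, their counts may not be independent. Cd93, a receptor of phagocytes and endothelium, was 2.45 ± 0.64 in labelled-KO LPS over WT LPS and fell by 2.39 ± 0.64 with LPS in WT (edgeR, BH-adjusted p = 0.0165 and 0.0214). Clec2i was −2.92 ± 0.80 in labelled-KO medium over WT medium, −2.42 ± 0.77 in WT LPS over WT medium and 2.70 ± 0.80 in labelled-KO LPS over labelled-KO medium, and Thbd, which encodes thrombomodulin, was −2.61 ± 0.60 in the first of these (edgeR, BH-adjusted p from 0.00820 to 0.0480).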

How the data were processed

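RNA from bone marrow-derived macrophages was sequenced in 12 libraries, grouped by their labels. Per the labels' protocols, both an Illumina TruSeq and a KAPA Stranded kit were named. The deposited counts are whole-number reads per gene, not normalised by the authors; the deposited FPKM values of the authors are those counts scaled by library total and gene length, within 0.00618%. Per the submitters' processing notes the build is mm10. Aligner, counter and strand setting: not given in the sources used here. Thus overlapping or antisense genes cannot be told apart. Positions are from GENCODE M21, which held 54409 of the 54446 identifiers; a count of 0 in every library was found for 27384. Promoters are from RefSeq (GRCm38.p6).

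The fit used edgeR 4.0.16 under R 4.3.3 (TMM factors, filterByExpr, glmQLFit and glmQLFTest), 1 mean per group over all 12 libraries, Benjamini-Hochberg over 13773 genes, called at 0.05; the SE comes from the F statistic, and intervals are 95% from the fit. The script was tested on simulated data. The most similar libraries of a group still differed (chi-square per degree of freedom 24.3), so none was counted as a repeat. The floor of 3 counts lay between 0.143 and 0.229 CPM and covers counting error only. The 10 genes, all lists and the comparisons of each KO group with the WT group of the other treatment were chosen with earlier results of these data known. All 10 genes were named in every comparison. From each list the text names, of called genes reaching 5 CPM on average in 1 of both groups, the 2 that rose most and the 2 that fell most, plus the direct partners Fcer1g, Tyrobp, Hcst, Syk and Card9, and for each receptor the 2 genes closest in pattern. Alternatives were DESeq2 1.42.0, limma 3.58.1 on log2(FPKM + 1) and log2(FPKM + 0.1), other scalings, no low-count filter, only the groups compared, a sex term (Xist above 20 CPM), a replicate block and each library left out; leaving out KO LPS 1 and WT medium 2 together was added after seeing the data.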

Additional observations from a re-analysis of the deposited data

Results flagged for a closer look

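The LPS effect differed between the labelled-KO and WT libraries, by a test of the difference itself (edgeR quasi-likelihood interaction with Benjamini-Hochberg adjustment), in 8 of the 10 genes, beside 41.1% of all genes. Values are the log2 fold of LPS over medium in labelled-KO cells minus that in WT. The difference was −9.54 for Clec4e, −3.51 for Clec5a, −2.57 for Clec4a1, −2.25 for Clec4d and −1.78 for Clec12a. It was 5.50 for Clec10a, 2.20 for Clec7a and 2.09 for Clec4n, and the sex term ended the calls of Clec10a and Clec4n (edgeR, BH-adjusted p = 0.185 and 0.0631). Since Nlrc3 and Nos2 went against the labels of these libraries, whether the differences belong to the genotype or to the labelling cannot be told apart from these data.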

How the results depend on the processing

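Among recounts of receptors called, 128 stayed within 1.5 times the count given and 32 did not; among recomputed folds of single receptors, 1367 kept direction and side of the threshold, 99 lost it, 79 gained it and 55 changed sign. Clec4e kept its 4 simple calls and its difference of LPS effects under every alternative run for it.

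The receptors called for labelled-KO LPS over WT LPS (3) were 6 with DESeq2, 7 with the sex term, 5 with limma on log2(FPKM + 0.1) (31.8%, 32.4% and 35% of all genes, against 24.1%), and 1 to 5 with single libraries left out. They were 6 when labelled-KO LPS 1 and WT medium 2 were left out together, a choice made after seeing the data. There 5062 of all 14209 genes tested were called. For labelled-KO medium over WT medium (3) they were 6 with DESeq2, 5 with no filter (33.5% and 14% of all genes, against 26.3%), and 1 to 6 with libraries left out. For WT LPS over WT medium (2) they were 4 with DESeq2, library size only, no filter or the sex term (25.8%, 30.7%, 9.78% and 25.7% of all genes, against 18.3%), 1 with only the groups compared (12.2%), and 1 to 3 with single libraries left out. With labelled-KO LPS 1 and WT medium 2 both left out they were 6, where 3712 of all 14209 genes tested were called. For labelled-KO LPS over labelled-KO medium (6) they were 3 with limma without a filter (18.9%, against 30.4%) and 2 to 6 with libraries left out. Single left-out libraries moved all genes called over 12.7% to 28.7%, 15.4% to 33.3%, 9.71% to 21.3% and 17.9% to 35.7% in these 4 comparisons. For the difference of LPS effects (8) they were 5 with library size only, 4 with limma without a filter (59.1% and 27.9%, against 41.1%) and 7 to 8 with libraries left out. Calls were also ended by fitting only the groups compared for Clec10a (labelled-KO LPS over WT LPS), Clec4n and Clec12a (labelled-KO medium over WT medium), Clec7a (WT LPS over WT medium) and Clec5a (labelled-KO LPS over labelled-KO medium), by limma on FPKM for Clec12a in all 3 simple comparisons where it passed and for Clec4d, and by leaving out the filter for Clec12a in both KO over WT comparisons. The sex term ended those of Clec4n, Clec10a and, for labelled-KO medium over WT medium, Clec12a. The cause was not tested.

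Clec4a2 and Clec4a3 passed in no comparison as given, though Clec4a3 passed with the sex term in all 4 simple comparisons and the difference, and both changed sign under several alternatives. Clec4a2 ran over single left-out libraries from 0.020 to 0.35 for labelled-KO LPS over WT LPS and −0.61 to 0.51 for labelled-KO medium over WT medium. It ran from −0.51 to 0.62 for WT LPS over WT medium and from −0.34 to 0.78 for the difference. Under the other settings its lowest values were −0.0069 for labelled-KO LPS over WT LPS and −0.52 for the difference. Over single left-out libraries, Clec4a3 ran from −0.53 to 0.23 for labelled-KO medium over WT medium (1.14 with the sex term). It ran from −0.31 to 0.50 for WT LPS over WT medium. For the difference, Clec4a3 ran from −0.83 to −0.027, with no change of sign. With KO LPS 1 and WT medium 2 both left out, that difference was 0.20. With library size only and with limma at pseudocounts 1, 0.1 and 1 without filter, Clec4a3 was −0.39, −0.30, −0.30 and −0.30 for WT LPS over WT medium, 0.41, 0.28, 0.29 and 0.28 for labelled-KO LPS over labelled-KO medium, and 0.79, 0.58, 0.59 and 0.58 for the difference.

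For labelled-KO medium over WT LPS, left-out libraries gave −0.10 to 0.63 for Clec4e, −0.25 to 0.071 for Clec4a2, −0.60 to 0.031 for Clec4a1, −0.62 to 0.24 for Clec4a3 and −0.35 to 1.25 for Clec10a. The sex term gave −0.15 for Clec5a, 0.15 for Clec4a1 and 0.33 for Clec4a3. Clec12a was −0.012 with library size only and −0.0071, −0.0072 and −0.0071 in the limma fits. For labelled-KO LPS over WT medium, left-out libraries gave −0.11 to 0.51 for Clec4n, −0.33 to 0.79 for Clec4a2 and −0.30 to 0.43 for Clec4a1. Clec4a1 was −0.015 with library size only, and Clec4a2 −0.0012 with no filter and −0.021 with only the groups compared.

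Replicate numbers paired no samples: of 18 same-numbered pairs of libraries, 8 had deviations correlated above 0.1 (r from −0.63 to 0.57). With the replicate block the receptors called were 3, 3, 2, 6 and 8 in the order above, the same counts as without it, and 0 in both comparisons across treatment labels. The lowest counts in a library among the 10 genes were those of Clec10a (25) and Clec5a (192), and how far depth limits their tests was not tested.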

Other observations

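The codes in the labels of the WT libraries share the number 45 between WT LPS 1 and WT medium 2, and the number 50 between WT LPS 2 and WT medium 3, and nothing in the labels says what a shared number means. Deviations from the group mean correlated at 0.59 with the number 45 and at 0.46 with the number 50. KO LPS 1 and WT medium 2, which share no number, reached 0.64. The tests above took all libraries as unpaired, and a pairing by these numbers was not tested. With the number 45, Clec4e stood at 2383 normalised CPM in the LPS library and 93.5 in the medium library, Clec5a at 207 and 108, and Clec4a1 at 316 and 84.9. With the number 50, Clec4e stood at 692 and 107 normalised CPM, Clec5a at 65.4 and 29.3, and Clec4a1 at 791 and 283. Clec4n, Clec7a and Clec10a were lower in the LPS library of both pairs, by log2 differences of −0.34, −1.55 and −0.94 with the number 45 and −0.99, −1.26 and −5.71 with the number 50. Clec4d, Clec12a and Clec4a3 were higher in it in both, and Clec4a2 was lower in one and higher in the other (−1.07 and 0.62).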
